A study of Rattus norvegicus with 6 samples.

Results

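Microglia and blood-lineage marker genes were examined in cultured primary rat astrocytes that carried a mutant TDP-43 transgene. The set held 9 genes, Aif1, Trem2, Fcer1g, Lcp1, Arhgdib, Pf4, Tyrobp, Csf1r and Lyve1. They were chosen by their genotype difference on these same arrays, so that difference is given below as a description with no test. Of the 9 genes, 8 had a probe named in the platform annotation, 1 probe each, and all 8 were among the 7580 genes kept of the 13337 named on the array. Csf1r had no named probe and was not analysed here. The 6 arrays held RNA of GFAP-tTA/TRE-TDP43 M337V astrocytes (M337V below) and of GFAP-tTA single transgenic astrocytes (tTA), with 1 array per genotype at 3, 4 and 6 days after doxycycline (Dox) withdrawal. Both genotypes carried the tetracycline transactivator under the promoter of Gfap, an astrocyte filament gene, and both had their Dox removed. By their labels the groups differed by the TRE-TDP43 M337V transgene, which the transactivator drives once Dox is gone. The labels do not say whether the genotypes came from matched animals or cultures, so genotype and culture preparation cannot be told apart. The study asked how astrocyte expression changes as mutant TDP-43 is induced. The labels do not say whether the 3 days of a genotype were separate cultures or how many animals gave them, so the tests below measure the spread between these arrays, which may be technical.

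Microglia are the resident macrophages of the brain and depend on the receptor Csf1r for survival, and primary astrocyte cultures are known to carry some of them unless they are removed. Their surface receptor Trem2 binds lipids and apolipoproteins and signals through the adaptor Tyrobp (DAP12), as many Fc receptors do through the adaptor Fcer1g. Both adaptors carry an immunoreceptor tyrosine-based activation motif (ITAM), which recruits the kinase Syk when phosphorylated. In bulk RNA, fewer cells of a type and less RNA per cell cannot be told apart, and no value below does so.

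RefSeq promoters were matched by symbol for 2 of the 8 measured genes, Trem2 and Lyve1, and are shown because Trem2 is the receptor of the set and Lyve1 the gene whose M337V level changed most with the days. Csf1r also has a promoter entry and is not shown, since it was not measured. Each window runs from 250 bases before to 50 bases after the annotated start, 5′ to 3′ along the gene, in the GRCr8 assembly. The Trem2 window is chr9:20151730-20152029 and the Lyve1 window is chr1:174410928-174411227, both on the minus strand. Capitals mark the letters GAGGAA or their reverse complement TTCCTC, the core of sites bound by the myeloid factor PU.1.
Trem2: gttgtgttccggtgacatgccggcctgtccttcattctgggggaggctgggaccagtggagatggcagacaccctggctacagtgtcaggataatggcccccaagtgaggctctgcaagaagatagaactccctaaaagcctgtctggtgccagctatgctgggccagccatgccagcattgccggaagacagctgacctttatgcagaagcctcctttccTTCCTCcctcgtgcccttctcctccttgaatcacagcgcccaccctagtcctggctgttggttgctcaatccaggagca
Lyve1: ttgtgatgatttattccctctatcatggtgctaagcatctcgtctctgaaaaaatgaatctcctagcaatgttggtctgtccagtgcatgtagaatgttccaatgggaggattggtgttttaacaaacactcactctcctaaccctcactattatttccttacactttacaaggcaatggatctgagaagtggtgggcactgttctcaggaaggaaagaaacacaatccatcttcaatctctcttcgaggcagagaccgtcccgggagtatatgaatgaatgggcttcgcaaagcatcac
The Trem2 window held 1 match, TTCCTC, whose first base lies at -29 from the start, and the Lyve1 window held 0. The letters occurred on either strand in 9239 of 33469 rat promoter windows of the same length (27.6%), so a match is a description of the sequence and not a site.

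A mean of 377, 526 and 554 signal units was read on the M337V arrays of days 3, 4 and 6, against 481, 468 and 474 on the tTA arrays, and 43.8% to 48.3% of 22523 probes were detected (detection p under 0.05 against negative control beads). Of the labelled cell type, 10 of 10 astrocyte genes on the array were detected on all 6 arrays, and Gfap stood at 15.04, 15.12 and 15.04 log2 in M337V cells and at 14.91, 15.00 and 15.12 in tTA cells. The rat Tardbp probe read 11.20, 11.23 and 10.83 log2 in M337V cells and 11.08, 10.87 and 10.62 in tTA cells and was not called (difference 0.23 ± 0.10, SE, limma adjusted p = 0.187). The labels do not say whether it reads the RNA of the transgene. Below, signals are the unprocessed bead intensities, and log2 levels are the same signals after background correction and quantile normalization.

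All 8 markers were higher in M337V cells than in tTA cells on each of the 3 days. Of all 7580 genes, 46.9%, 44.7% and 41.9% were higher on days 3, 4 and 6. Every marker was detected on all 3 M337V arrays. On the tTA arrays 2 of the 8 were detected on day 3, 2 on day 4 and 4 on day 6. Arhgdib, Pf4, Tyrobp and Lyve1 were detected on none of these arrays, Trem2 and Aif1 on that of day 6 alone, and Fcer1g and Lcp1 on all 3. The limma fit with day as a factor called 8 of 8 at an adjusted p under 0.05, beside 19.6% of all 7580 genes (9.75% higher and 9.85% lower in M337V cells). Since this contrast chose the genes, nothing is read from that count or from the 8 of 8 higher on each day. The median difference of the 8 was 5.01 on the log2 scale, and that of all 7580 genes was -0.05. Where a tTA array did not detect a gene, the fold is a lower bound, computed against the lowest log2 level among detected probes of that array where that exceeded the gene's own; with such arrays at their bound the median of the 8 was 4.74.

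**Figure D1:**
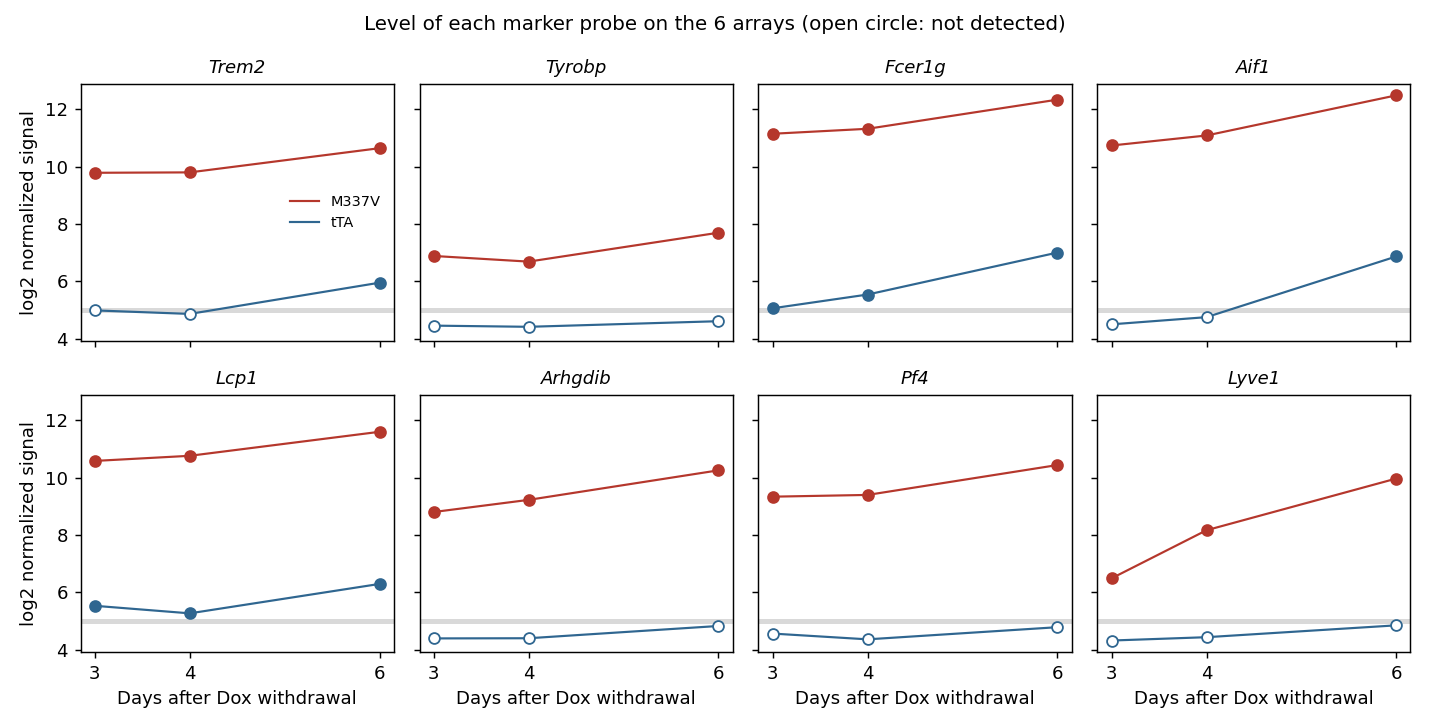
Normalized log2 level of each of the 8 measured markers on the M337V and tTA arrays of days 3, 4 and 6, 1 point per array, open where the array did not detect the probe, with a grey line near the level of the dimmest detected probe. The genes were chosen by their genotype difference. All tTA points of Arhgdib, Pf4, Tyrobp and Lyve1 are open and lie below the grey line.

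Among the receptors and adaptors, Trem2 read 743, 1095 and 2003 signal units on the M337V arrays of days 3, 4 and 6, against 108, 108 and 135 on the tTA arrays. Its log2 levels were 9.79, 9.80 and 10.64 in M337V cells and 4.99, 4.87 and 5.96 in tTA cells, a difference of 4.80 ± 0.12 (SD over 3 days), or at least 26.9-fold. Of the tTA arrays, that of day 6 detected the probe at a detection value of 0.00364, and that of day 3 lay just outside the threshold at 0.0521. The difference lay between 4.69 and 4.93 on the 3 days after normalization, while the ratio of unprocessed signals, not scaled for the mean signal of the arrays, was 6.85 on day 3 and 14.9 on day 6.

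Tyrobp is the adaptor through which Trem2 signals. It read 161, 209 and 352 signal units on the M337V arrays, against 90.4, 92.4 and 95.3 on the tTA arrays, none of which detected it. After normalization the log2 levels were 6.89, 6.69 and 7.70 in M337V cells and 4.46, 4.42 and 4.62 in tTA cells, a difference of 2.59 ± 0.43 (SD over 3 days), or at least 4.28-fold. The day 4 level of M337V cells was the lowest of its 3, which held for no other marker.

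Fcer1g, the signalling chain shared by Fc receptors, was one of the 2 markers that every tTA array detected. It read 1778, 2881 and 6168 signal units on the M337V arrays, against 110, 125 and 197 on the tTA arrays. Normalized, it stood at log2 levels of 11.15, 11.32 and 12.33 in M337V cells and 5.07, 5.55 and 7.01 in tTA cells, a difference of 5.73 ± 0.38 (SD over 3 days), or 52.9-fold. The level was highest on day 6 in both genotypes.

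Among the cytoskeletal genes, Aif1 encodes IBA1, an actin-bundling protein used to stain microglia. It read 1367, 2501 and 6754 signal units on the M337V arrays, against 92.8, 105 and 186 on the tTA arrays. On the log2 scale it stood at 10.74, 11.09 and 12.48 in M337V cells and 4.51, 4.76 and 6.87 in tTA cells, a difference of 6.06 ± 0.39 (SD over 3 days), or at least 55.9-fold. The tTA array of day 6 detected the probe while those of days 3 and 4 did not.

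Lcp1 encodes L-plastin, an actin-bundling protein of white blood cells. It read 1246, 2040 and 3751 signal units on the M337V arrays, against 122, 118 and 150 on the tTA arrays, all of which detected it. Its log2 levels were 10.58, 10.76 and 11.60 in M337V cells and 5.54, 5.27 and 6.30 in tTA cells, a difference of 5.28 ± 0.22 (SD over 3 days), or 38.8-fold. Lcp1 and Fcer1g are thus the markers whose folds are measured on both sides on every day.

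Arhgdib encodes a cytosolic regulatory protein found mainly in blood-lineage cells. It read 411, 773 and 1572 signal units on the M337V arrays, against 86.8, 91.5 and 102 on the tTA arrays, none of which detected it. After normalization the log2 levels were 8.80, 9.23 and 10.25 in M337V cells and 4.40, 4.41 and 4.83 in tTA cells, a difference of 4.88 ± 0.51 (SD over 3 days), or at least 21.6-fold. The M337V level was higher on each later day, and the tTA arrays gave no level above background.

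Pf4 encodes a chemokine stored in platelets and made by some macrophages. It read 569, 850 and 1757 signal units on the M337V arrays, against 95.5, 89.0 and 101 on the tTA arrays, none of which detected it. Normalized, it stood at log2 levels of 9.34, 9.40 and 10.44 in M337V cells and 4.57, 4.37 and 4.79 in tTA cells, a difference of 5.15 ± 0.45 (SD over 3 days), or at least 26.5-fold. Days 3 and 4 of the M337V cells lay close together, and day 6 lay above both.

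Lyve1 is a hyaluronan receptor of lymphatic endothelium and of macrophages at the borders of the brain. It read 140, 419 and 1311 signal units on the M337V arrays of days 3, 4 and 6, against 81.4, 93.5 and 103 on the tTA arrays, none of which detected it. On the log2 scale it stood at 6.49, 8.17 and 9.97 in M337V cells and 4.33, 4.44 and 4.85 in tTA cells, a difference of 3.67 ± 1.47 (SD over 3 days), or at least 9.28-fold over the days together. By day, the fold was at least 2.81 on day 3, at least 8.89 on day 4 and at least 32.0 on day 6.

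**Figure D2:**
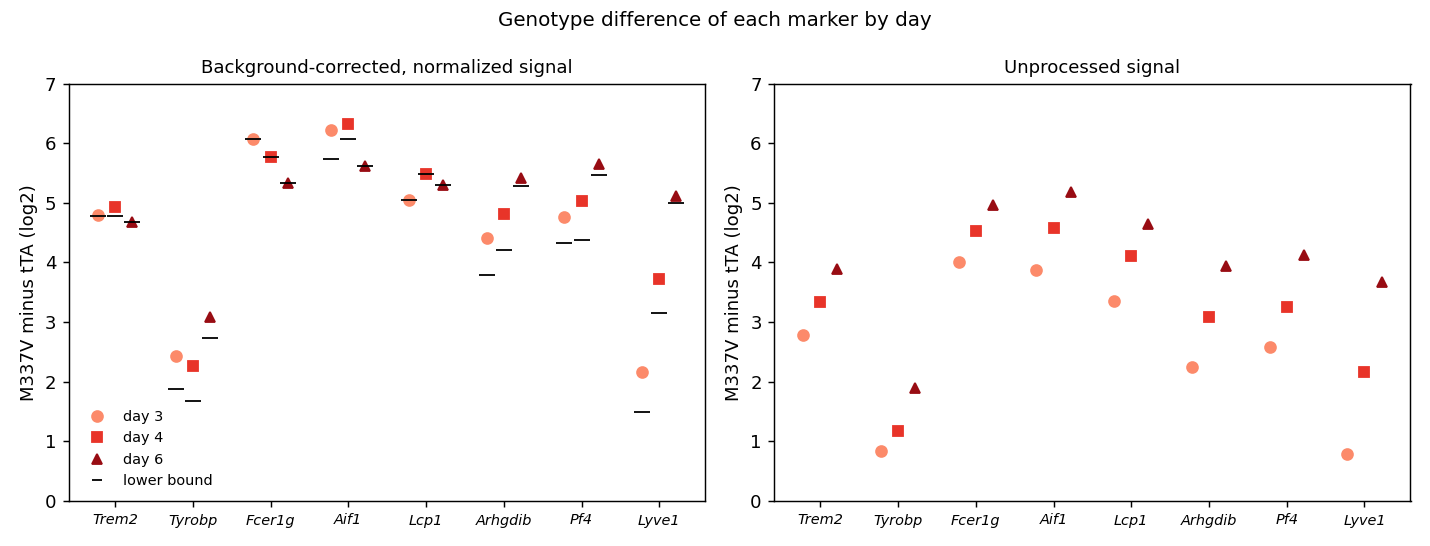
Difference M337V minus tTA of each of the 8 markers on days 3, 4 and 6, on the log2 scale, from normalized signal (left, with a dash at the lower bound) and from unprocessed signal (right). The unprocessed difference was larger on each later day for all 8, and it is not scaled for the mean signal of the arrays, which was also larger on each later day in M337V cells. The normalized difference of Aif1, Fcer1g and Trem2 was smaller on day 6 than on day 3. That of Lyve1, Arhgdib and Pf4 was larger on each later day.

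The rule that names the genes does not use the day course within M337V cells, but earlier results of these data were known when the genes were picked, so the slope tests may not be independent of that choice. In a limma fit with a separate intercept and linear day slope for each genotype, Lyve1 rose by 1.12 ± 0.10 log2 per day and Arhgdib by 0.49 ± 0.06 (SE; adjusted p = 0.0215 and adjusted p = 0.0328). These were 2 of the 8 markers, beside 1.23% of all 7580 genes called in either direction (93 genes, of which 73 rose). Both calls were kept under each of the 8 alternatives run for them, with adjusted p-values up to 0.0317 for Lyve1 and up to 0.0478 for Arhgdib. Only 1 gene of the 7580, Bcas1, an oligodendrocyte gene named here after its value was seen, had a larger M337V slope than Lyve1, at 1.12 ± 0.11 log2 per day. From day 3 to day 6 the Lyve1 level of M337V cells became 11.1-fold larger, by 1.67 log2 in the 1 day to day 4 and by 1.80 in the 2 days to day 6.

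The other 6 M337V slopes did not pass the adjusted threshold. They were 0.60 ± 0.10 log2 per day for Aif1 (adjusted p = 0.0679), 0.41 ± 0.07 for Fcer1g (adjusted p = 0.0588) and 0.39 ± 0.08 for Pf4 (adjusted p = 0.0997). Lcp1 had 0.35 ± 0.10 (adjusted p = 0.167), Trem2 0.31 ± 0.10 (adjusted p = 0.198) and Tyrobp 0.30 ± 0.09 (adjusted p = 0.180). At an unadjusted p under 0.05 all 8 markers passed, as did 1304 of the 7580 genes. The median slope of the 8 was 0.40 in M337V cells and 0.24 in tTA cells, and that of all genes was -0.01 in M337V cells and 0.00 in tTA cells. The 7 markers other than Lyve1 changed by -0.20 to 0.42 log2 over the 1 day between days 3 and 4 of the M337V cells, and gained 0.84 to 1.40 over the 2 days between days 4 and 6.

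The number of M337V slopes called depended on the processing. It was 8 of 8 without background correction (7.70% of all genes), with median scaling (10.5%) and in the authors' deposited log2 values (8.31%), and 7 of 8 with an offset of 50 (5.61%) or an intensity trend in the variance (7.22%). Fitted to the 3 M337V arrays alone, 3 of 8 passed (0.660% of all genes). The mean signal of the M337V arrays was also larger on each later day (377, 526 and 554 units), and its part in the slopes was not tested.

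**Figure D3:**
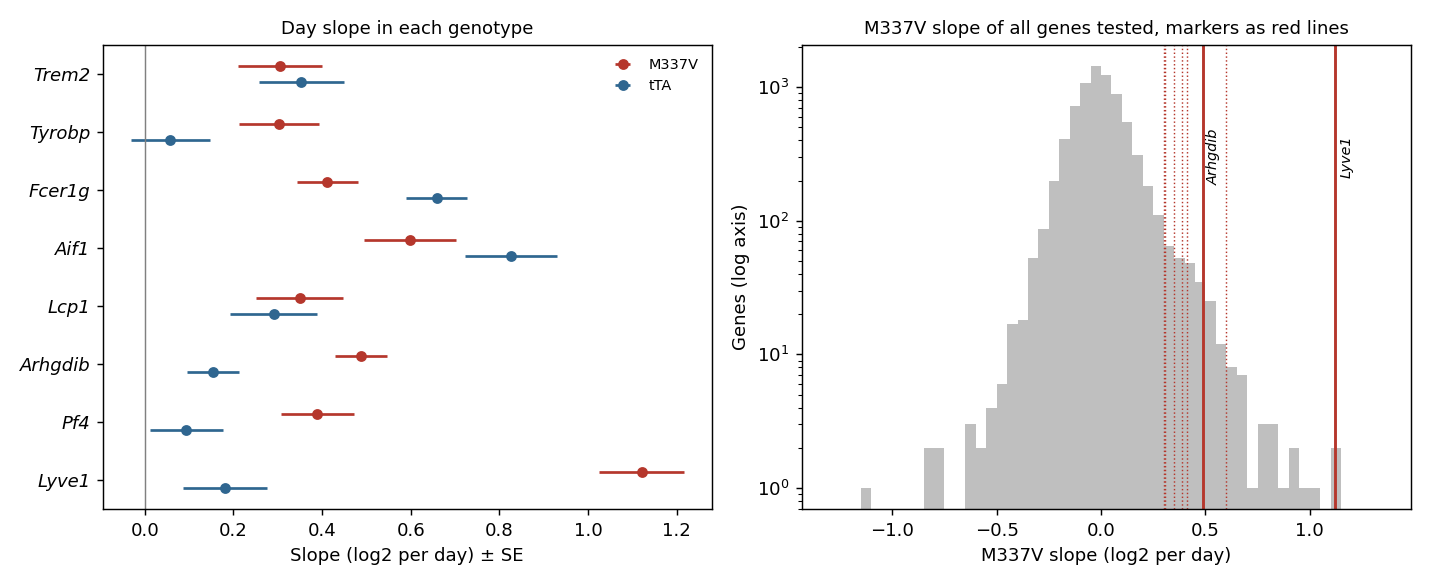
Left, the day slope of each marker in M337V and tTA cells in log2 per day, with bars of 1 SE from the fit; right, a histogram of the M337V slopes of all 7580 genes on a log count axis with the 8 markers as red lines. Lyve1 at 1.12 and Arhgdib at 0.49 log2 per day are the 2 whose M337V slope passed the adjusted threshold.

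Without a test, 6 of the 8 markers were at least 2-fold higher on day 6 than on day 3 in M337V cells, beside 2.99% of all genes. In tTA cells 2 of the 8 were, Aif1 and Fcer1g, beside 1.62% of all genes. Fcer1g was detected on both of those tTA days and was 3.84-fold higher on day 6, while Aif1, detected on day 6 alone, was at least 3.64-fold higher. Unprocessed signal gave smaller ratios of day 6 to day 3 in tTA cells, 1.79 for Fcer1g and 2.01 for Aif1.

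The slope difference, M337V minus tTA, asks whether the genotype difference changed with the days. The limma fit called 0 of the 8 markers and 0 of 7580 genes (0%), while 4 markers and 607 genes had an unadjusted p under 0.05. Of the 4 markers, Lyve1, Arhgdib and Pf4 had a positive slope difference and Fcer1g a negative one. Lyve1 had a slope difference of 0.94 ± 0.13 log2 per day (SE, adjusted p = 0.191), and 3 of all genes exceeded it. Its adjusted p ranged from 1.44e-10 to 0.207 over 8 alternatives and lay under 0.05 in 5 of them. Arhgdib had 0.33 ± 0.08 (adjusted p = 0.402), under 0.05 in 4 of 8 alternatives, and Pf4 had 0.30 ± 0.12 (adjusted p = 0.615), under 0.05 in 1 of 8. The tTA side of these 3 slopes, and that of Tyrobp, was fitted to levels not detected above background on any day, and that of Aif1 and Trem2 to such levels on days 3 and 4.

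Tyrobp had a slope difference of 0.25 ± 0.13 log2 per day (SE, adjusted p = 0.728) and Lcp1 of 0.06 ± 0.14 (adjusted p = 0.956). The sign was not settled for the other 3 markers. Fcer1g had -0.25 ± 0.10 (adjusted p = 0.614), with 0.12 without background correction, Aif1 had -0.23 ± 0.15 (adjusted p = 0.783), with 0.25 without background correction, and Trem2 had -0.05 ± 0.13 (adjusted p = 0.962), with 0.16 without background correction. The unprocessed signal ratio of M337V to tTA arrays was larger on each later day for all 3, at 16.1, 23.0 and 31.3 for Fcer1g, 14.7, 23.7 and 36.3 for Aif1, and 6.85, 10.1 and 14.9 for Trem2. These ratios are not scaled for the mean signal of the arrays. That mean was 377, 526 and 554 units on the M337V arrays and 481, 468 and 474 on the tTA arrays, and its part in the ratios was not tested.

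Lists of other genes of the same lineages and pathways, none of them among the 9, were described by their counts and their median difference, beside the median of -0.05 over all genes. Genes detected on none of the tTA arrays passed the filter through the M337V arrays alone, so the counts and medians over tested genes lean towards higher in M337V cells, and they are set out here as a description. The lists were also drawn up with earlier results of these data known. Fits of single genes that no tTA array detected compare with background levels, and their adjusted p-values are likewise a description. Among genes given a fold below, these are Coro1a, Cd53, Plek, Ncf1, Adgre1, Inpp5d, Fcgr1a, Mrc1, Folr2, Ccl3, Ccl4 and Esam. Over all genes, 662 of 13337 were called higher when no filter was set, and 608 of 6335 among genes detected on all arrays. Of 17 pan-leukocyte genes on the array, 13 were tested, 7 of them detected on none of the tTA arrays. The fit called 11 of the 13 higher and 0 lower in M337V cells, beside 9.75% of all genes higher. It called 8 higher when no filter was set and 1 among genes detected on all arrays. Of this list only Rac2 and Cd48 were detected on all 3 tTA arrays. The median difference was 1.95 log2, or 1.56 with undetected tTA levels at their bound. Coro1a, an actin regulator of leukocytes, averaged at least 18.3-fold higher (4.49 ± 0.28, SE, adjusted p = 0.000999), and Cd53, a leukocyte tetraspanin, at least 9.14-fold (3.63 ± 0.29, adjusted p = 0.00166). Laptm5, a lysosomal membrane protein of blood cells, was at least 7.85-fold higher, and Plek, a substrate of protein kinase C in platelets and leukocytes, at least 4.93-fold. The summed unprocessed signal of this list ranged from 4954 to 11272 units on the M337V arrays and from 4137 to 4450 on the tTA arrays.

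Of 17 general myeloid genes on the array, 13 were tested, 7 of them detected on none of the tTA arrays. The fit called 11 of the 13 higher and 0 lower, beside 9.75% of all genes higher. With no filter it called 10 higher, and among genes detected on all arrays 3. Only Itgam, Cd14, Ifi30 and Tlr2 of this list were detected on all 3 tTA arrays. The median difference was 1.33 log2, or 0.88 at the bounds, and the summed unprocessed signal ranged from 3399.5 to 10801 units on the M337V arrays and from 2128 to 2152 on the tTA arrays. Ctss, a lysosomal protease of antigen-presenting cells, was at least 42.2-fold higher (5.64 ± 0.13, SE, adjusted p = 5.83e-05), and Ncf1, a subunit of the phagocyte NADPH oxidase, at least 15.4-fold (4.25 ± 0.35, adjusted p = 0.00186). Adgre1, which encodes F4/80, was at least 7.80-fold higher, and Tlr2, a receptor for bacterial lipoproteins, was 4.14-fold higher. The myeloid transcription factors Spi1, which encodes PU.1, and Irf8 were on the array and detected on none of the 6 arrays.

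Of 21 genes on the array of ITAM receptor signalling, the pathway into which Tyrobp and Fcer1g feed, 14 were tested, 8 of them detected on none of the tTA arrays. The fit called 11 of the 14 higher and 0 lower, beside 9.75% of all genes higher. With no filter it called 12 higher, and among genes detected on all arrays 1. Only Plcg2, Card9 and Sirpa of this list were detected on all 3 tTA arrays. The median difference was 1.29 log2, or 0.89 at the bounds. The summed unprocessed signal overlapped between the genotypes, at 6409.97 to 12621 units on the M337V arrays and 6568 to 7935 on the tTA arrays. Fcgr3a, an Fc receptor that pairs with Fcer1g, was at least 13.2-fold higher (3.96 ± 0.19, SE, adjusted p = 0.000559). The phosphatases Ptpn6 and Inpp5d, which dampen these receptors, were at least 7.34-fold and at least 3.34-fold higher, and Fcgr1a, the high-affinity Fc receptor, at least 2.91-fold. Syk itself did not pass the filter, and its probe was detected on 2 of the M337V arrays and on 0 of the tTA arrays.

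Of 5 homeostatic microglia genes tested, 0 were called in either direction, beside 19.6% of all genes, and the median difference was 0.08 log2. Of the 5, Sall1, Olfml3 and Adgrg1, whose value is the median, were detected on all 3 tTA arrays. Slc2a5 was detected on 1 tTA array and Cx3cr1 on none (difference 0.39, limma adjusted p = 0.0559). The sugar transporter Slc2a5 had a difference of 1.35 ± 0.38 (SE, adjusted p = 0.0614) and was called higher in 6 of 11 alternatives. Olfml3, a secreted protein of microglia, had -0.63 ± 0.19 (adjusted p = 0.0749) and was called lower in 6 of 12. The summed unprocessed signal of the list overlapped between the genotypes, at 6599 to 9291 units on the M337V arrays and 7862 to 8208 on the tTA arrays. The purinergic receptors P2ry12 and P2ry13 were detected on 1 and on 2 of the M337V arrays and on 0 of the tTA arrays, and Tmem119, a microglial membrane protein, on 1 M337V and 1 tTA array. Of the Csf1r axis, 4 genes were tested and the transcription factor Runx1 was lower by the fit (-0.90 ± 0.15, adjusted p = 0.0152), beside 9.85% of all genes lower. The Runx1 call was lost without day 4 (adjusted p = 0.0719). The Csf1r ligands Csf1 and Il34 had -0.26 and 0.18 and were not called.

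Of 7 border macrophage genes tested, 3 were higher and 0 lower, beside 9.75% of all genes higher. The median difference was 0.61 log2, or 0.43 at the bounds, and 2 of the 7, Mrc1 and Folr2, were detected on none of the tTA arrays. Mrc1, the mannose receptor, was at least 6.37-fold higher, Folr2, a folate receptor of tissue macrophages, at least 4.06-fold, and Dab2, an endocytic adaptor, 2.37-fold. Cd163, the haemoglobin scavenger receptor of these cells, was detected on none of the arrays. Of 12 activated phagocyte genes tested, with a median difference of 0.25 log2, 3 were higher and 0 lower, beside 9.75% of all genes higher. Without background correction, with an offset of 50, in the deposited values and with a variance trend, 5 to 6 were higher. The 3 of the main fit were the chemokines Ccl3, at least 3.79-fold, and Ccl4, at least 1.25-fold, and the protease Ctsb, 1.48-fold. Ccl3 and Ccl4 were the 2 genes of this list detected on none of the tTA arrays. The Ctsb call was lost in 4 of 12 alternatives.

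Many markers of other blood lineages and of endothelium were never detected, though the platelet and erythroid lists held genes detected on all of the arrays. The T cell list had 1 gene tested of 10 on the array and 7 never detected, and Cd3e, a chain of the T cell receptor complex, had a difference of -0.07 ± 0.18 (SE, adjusted p = 0.834). The B cell list had 0 genes tested, and 4 of 5 were never detected. Of 2 platelet genes tested, 0 were called (P2ry1 -0.28, Gp1bb 0.12), and the platelet genes Gp9, Gp5 and Treml1 were never detected, while Ppbp, a platelet chemokine stored in the same granules as Pf4, was detected on 0 M337V arrays and 1 tTA array. Of 3 erythroid genes tested, 0 were called, and 4 of 8 on the array were never detected. Over all genes, 19.6% were called in either direction.

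The neutrophil and mast cell list had 2 genes tested of 14 on the array, and 10 were never detected. Both tested genes were called higher, beside 9.75% of all genes. Hdc, which makes histamine, was at least 2.14-fold higher, and Prtn3, a granule protease, at least 1.45-fold, a call lost in 4 of 11 alternatives. Of the genes not tested, Mpo was detected on 0 M337V and 2 tTA arrays, and S100a8 on 1 M337V and 0 tTA arrays. The lymphatic and blood endothelium list had 5 genes tested, of which Esam and Vwf were called higher and Cldn5 lower, beside 19.6% of all genes called in either direction. Esam was detected on none of the tTA arrays and was at least 1.24-fold higher. The Esam call was lost without day 3 (adjusted p = 0.0519), that of Vwf in 3 of 11 alternatives and that of Cldn5 in 11 of 11. The other tested genes of the list, Tie1 (-0.34, detected on 3 tTA arrays) and Flt1 (0.24, on 2), were not called. Prox1 and Ccl21, which mark lymphatic endothelium as Lyve1 does, and Cdh5, which marks all endothelium, were detected on none of the arrays. Of 10 astrocyte genes tested, S100b (0.93) and Aqp4 (0.79, lost without day 4, adjusted p = 0.0732) were called higher and 0 lower. Over all genes, 9.75% were called higher and 19.6% in either direction, and nothing is read from the count of astrocyte genes. The summed astrocyte signal ranged from 117961 to 164369 units on the M337V arrays and from 131622 to 143048 on the tTA arrays.

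**Figure D4:**
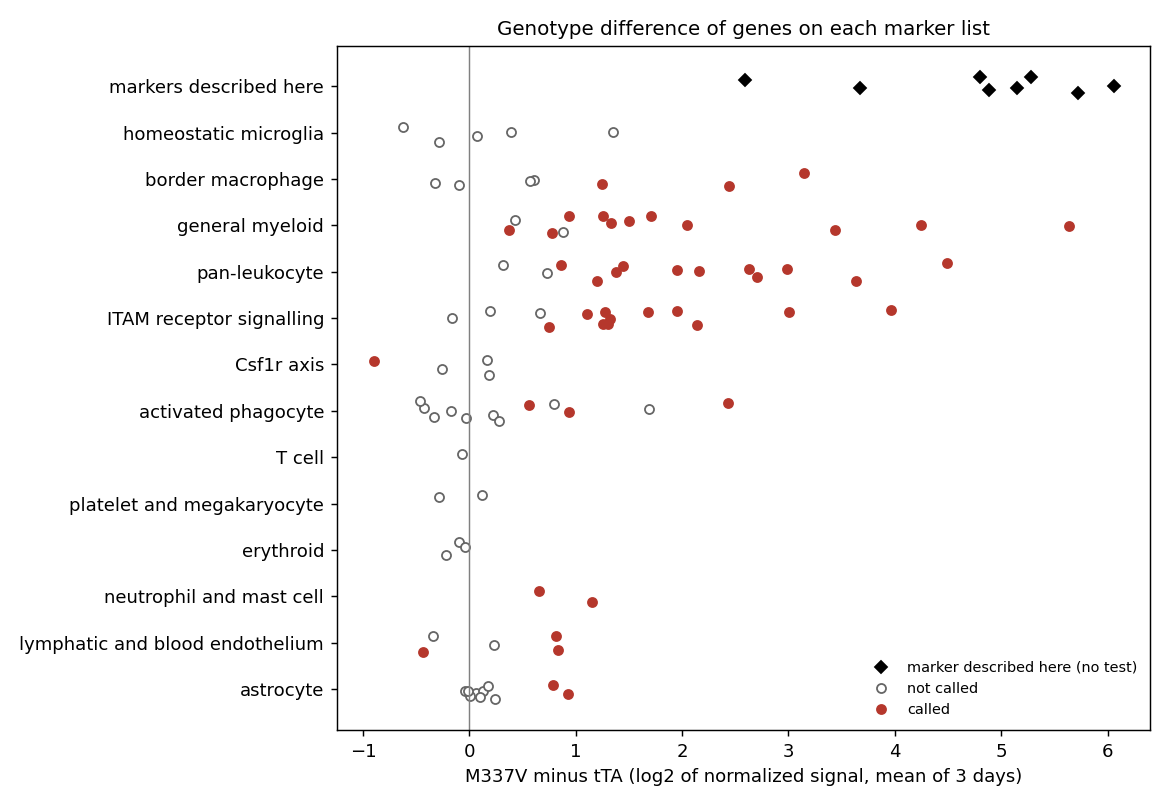
Genotype difference, M337V minus tTA in log2, of the 8 markers (black diamonds, no test) and of each tested gene of each list, 1 point per gene, red where it passed the adjusted threshold. Pan-leukocyte, general myeloid and ITAM genes lie mostly above 0, with medians of 1.95, 1.33 and 1.29 (1.56, 0.88 and 0.89 at the bounds), and homeostatic microglia genes have a median of 0.08.

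The M337V day slope of the list genes, beside 1.23% of all genes, was called for 6 of 13 pan-leukocyte, 5 of 14 ITAM, 3 of 13 general myeloid and 1 of 5 homeostatic microglia genes, each of them rising. Their limma adjusted p lay between 0.0293 and 0.04999, and these single calls were not followed over the alternatives. The genes are named here after their values were seen. The ITAM genes were Fcgr3a (0.57 log2 per day), Ptpn6 (0.42), Blnk (0.41), Fgr (0.41) and Dok3 (0.36), and the general myeloid genes were Ncf1 (0.69), the endosomal RNA receptor Tlr7 (0.50) and the oxidase subunit Cybb (0.41). Slc2a5 rose by 0.55 log2 per day. None of the border macrophage or astrocyte genes passed, and the median slope of the border macrophage genes was 0.22 log2 per day.

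The mean profile of the 8 markers, each centred on its own mean over the 6 arrays, stood at 1.79, 2.12 and 3.24 log2 in M337V cells and at -2.70, -2.67 and -1.78 in tTA cells on days 3, 4 and 6. Arhgdib (0.17) and Trem2 (0.18) lay closest to it by root mean square distance over the arrays, Lcp1 and Pf4 followed at 0.30, and Fcer1g (0.57), Aif1 (0.79), Lyve1 (0.82) and Tyrobp (1.13) lay farther off. The 10 other genes nearest to the profile were Coro1a (0.29), RT1-DMb (0.32), Pnlip (0.33), Gap43 (0.34), Ncf1 (0.40), Fcgr3a (0.43), Ctss (0.48), C1qa (0.49), C1qc (0.51) and Cd83 (0.55), where the median distance of all genes was 2.48. The list holds genes of antigen presentation (RT1-DMb), of complement (C1qa, C1qc), a pancreatic lipase (Pnlip) and a growth cone protein of neurons (Gap43), and 4 of the 10 stand on the lists above.

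**Figure D5:**
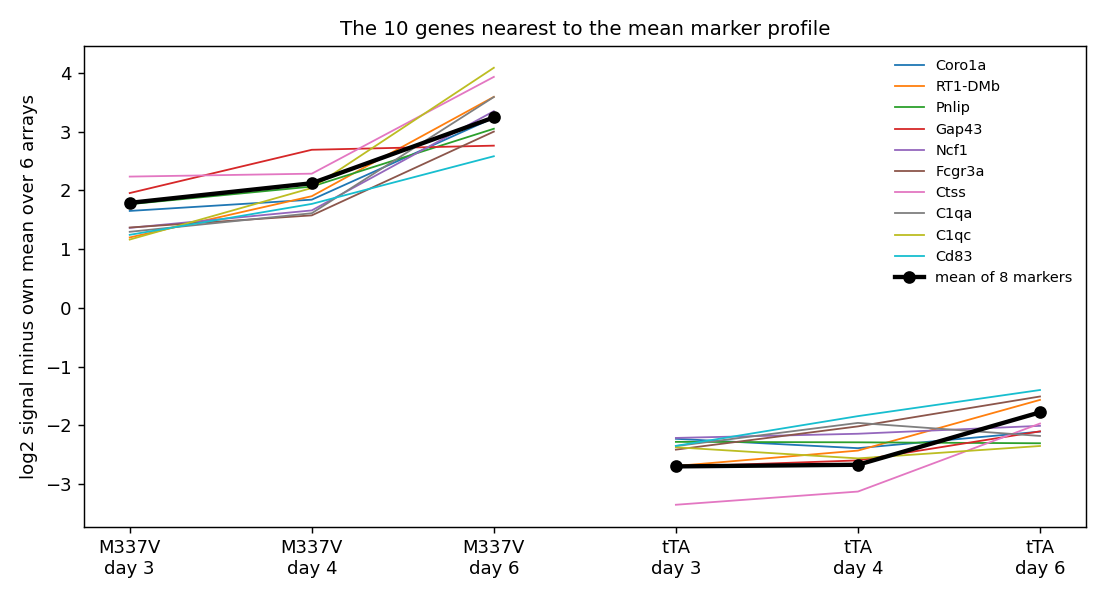
Level of the 10 nearest genes and the mean of the 8 markers on the 6 arrays, each gene centred on its own mean, in log2. All 11 lines are above 0 on the M337V arrays and below 0 on the tTA arrays.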

How the data were processed

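Total RNA from 6 labelled astrocyte samples, 1 per genotype and day, went onto Illumina rat beadchips. Export was by GenomeStudio per the submitters' processing notes, which give no version. A bead signal intensity, linear and unnormalized, and a detection p-value against negative control beads are held for each of 22523 probes on each array, per the file headers. A second deposited table holds log2 values: the authors scaled log2 intensities by the upper quartile of an array and then subtracted a further value per probe whose origin is unknown (largest departure from this 0.00150).

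Gene names came from the platform annotation (13793 with 1 symbol, 8730 unnamed here; 13752 Entrez identifiers matched the RefSeq table of GRCr8 and 41 did not). The limma package (3.58.1, R 4.3.3) was used for normexp background correction inferred from detection p-values, with 16 added as offset, then for quantile normalization and log2, so folds of dim genes depend on these steps. Probes with detection p under 0.05 on at least 3 of 6 arrays were kept (10478), and the brightest stood for its gene (7580 genes). Genotype was fitted with day as a factor, and slopes with an intercept and linear day term per genotype; both fits had 2 residual degrees of freedom, and p-values were adjusted by Benjamini-Hochberg over all 7580 genes. Deviations from the genotype means correlated at 0.44, 0.08 and 0.42 between the genotypes on days 3, 4 and 6. On simulated data with 200 changed genes of 7580, the genotype fit recovered 74 at a log2 change of 0.5 and 198 at 1. For the slope fits the change was 0.5 or 1 log2 per day, which adds up over the days. The M337V slope fit recovered 192 and 200, and the slope difference 125 and 199. False calls were 8 and 13, 10 and 15, and 3 and 5 in the same order. The simulated noise was independent between arrays and took its spread from the fit with day as a factor. It held no deviation shared by the arrays of a day, which the slope fits do not remove, so recovery by the slope fits may be overstated.

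The marker genes and the gene lists were chosen with earlier results of these data known. From each list the text names the 4 called genes of largest difference, 2 called the other way, or, with no call, the 2 of largest difference, and the 10 genes nearest to the mean marker profile. Other list genes are named where the text gives their detection or says that they were named after their values were seen. Alternatives changed the background correction, offset, normalization, source of values, filter, variance model, day factor and days included. Proteins were not used here.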

Additional observations from a re-analysis of the deposited data

How the results depend on the processing

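The median genotype difference of the 8 markers was 5.01 log2 and became 3.11 without background correction, 3.92 with an offset of 50, 3.21 in the authors' deposited values and 5.50 for the 2 markers detected on all arrays. Genotype calls over all genes were 1486, with 966 without the day factor as a replicate block and 631 to 1055 with 1 day left out (631 without day 4). M337V slope calls were 93, with 584 without background correction, 425 with an offset of 50, 794 with median scaling, 630 in the deposited values, 547 with a variance trend and 50 from the M337V arrays alone. Slope difference calls were 0, with 82, 48, 171, 98 and 29 in the first 5 of these settings in the same order and 1 without the filter. Median scaling moved the median M337V slope of all genes to 0.11 log2 per day and the slope difference to 0.10.

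The slope difference turned positive, with no call, for Aif1 without background correction, with an offset of 50 and in the deposited values (adjusted p = 0.185, 0.864 and 0.195), for Trem2 in these and with median scaling (adjusted p = 0.539, 0.854, 0.432 and 0.840), and for Fcer1g without background correction and in the deposited values (adjusted p = 0.695 and 0.636). Of the genotype calls 49.7% were higher in M337V cells, against 64.5% with median scaling, 59.2% with cyclic loess, 39.7% in the deposited values, 60.9% without day 4 and 40.9% among genes detected on all arrays. That last filter left 3 general myeloid genes called higher and 1 each of the pan-leukocyte, ITAM and border macrophage genes, since genes at background in tTA cells were not tested; without day 4 the general myeloid count was 7, and median scaling gave 5 border macrophage genes. Activated phagocyte genes called higher were 3, with 6 without background correction or with a variance trend and 5 with an offset of 50 or in the deposited values, and 1 homeostatic microglia gene was called higher in 6 of 12 alternatives. Background correction and scaling were not run together, and the cause of these moves was not tested. Slopes with 1 day left out were not run, since no residual degree of freedom is left, and a median over probes was not run, since each marker has 1 probe. The precision is limited by 1 array per genotype and day, and levels near background in tTA cells bound every fold of Arhgdib, Pf4, Tyrobp and Lyve1.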
